A study of Mus musculus with 12 samples.

Results

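The histone mark H3K27ac was examined at 10 circadian clock genes, namely Clock, Arntl, Per1, Per2, Cry1, Cry2, Nr1d1, Nr1d2, Dbp and Tef, in adult mouse cardiomyocytes (CMs) with and without RIP140, the corepressor encoded by Nrip1. Every region of the control and RIP140-null lists that overlapped the gene body (GENCODE M21, GRCm38) extended by 5 kb on each side was taken. The 10 windows spanned 515.472 kb in all and held 37 of 53754 control regions and 40 of 45521 RIP140-null regions. Of 21938 protein-coding genes, 14443 had a region of either list in a window built the same way.

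The mammalian circadian clock is a feedback loop of transcription factors that runs in nearly every cell, CMs included. CLOCK and BMAL1 (the product of Arntl) bind E-boxes and activate the Period and Cryptochrome genes, whose proteins return to the nucleus and repress CLOCK and BMAL1. REV-ERBα and REV-ERBβ (Nr1d1 and Nr1d2) close a further loop by repressing Arntl through ROR elements (ROREs), and the PAR bZIP factors DBP and TEF carry the rhythm to output genes through D-boxes. In heart the clock is known for timing fuel use and ion channel expression.

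CUT&RUN, in which an antibody directs a nuclease to cut out the marked chromatin, was performed on CMs isolated by Langendorff perfusion from male mice aged 10 to 12 weeks and enriched at 50 g, with 200000 CMs per experiment. Both groups carried the floxed Nrip1 allele, and the genotypes were Nrip1 f/f Cre- for control littermates and Nrip1 f/f Cre+ for RIP140-null (csNrip1-/-) CMs. Recombination was driven by Nkx2.5-Cre, which is active from the embryonic heart onward, and the control group carried no Cre, so Cre itself and the loss of Nrip1 cannot be told apart. Each genotype had 3 H3K27ac samples and 3 IgG samples, and the question was which regions differ in H3K27ac when RIP140 is absent. The study's methods give a late morning hour for tissue harvest and light and dark housing, without a separate clock time for the CM isolations. Clock genes cycle over the day, and the part of the time of isolation in the differences below was not tested.

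Each list holds the regions called in at least 2 of 3 replicates of 1 genotype and gives their positions without tag counts. A region listed in 1 genotype may therefore have been called in 1 replicate of the other. There is 1 list per genotype, so differences between the lists have no replicate error, no test was possible, and sequencing depth is unknown. Homer's count of subpeaks merged into a region was the remaining measure of support, since a listed region with exactly 2 subpeaks was called in exactly 2 of the 3 replicates. A region can hold several subpeaks of 1 replicate, so a count of 3 or more does not show that all 3 replicates called it.

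The last exon of Nrip1 (chr16:76287400-76295015), which holds its coding sequence, had 2904 bp covered in the control list and 0 bp in the RIP140-null list. The start sites of 6 of 6 CM markers (Myh6, Tnnt2, Tnni3, Actc1, Myl2 and Ryr2) were covered in both lists, as were those of 3 of 4 endothelial markers (Pecam1, Tie1 and Kdr, not Cdh5). None of 4 fibroblast and 4 macrophage markers was covered in either list. The part that endothelial cells had in the clock gene regions was not tested.

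The start sites covered in 1 list alone were those of Clock and Arntl, the activating pair. The 150 bases upstream of their start sites are shown because these promoters lay inside an H3K27ac region in RIP140-null CMs and outside any region in control CMs. They run 5′ to 3′ on the strand of each gene (GRCm38, RefSeq sequence), Clock at chr5:76304793-76304942 on the minus strand and Arntl at chr7:113207315-113207464 on the plus strand. Neither stretch held an E-box, E′-box, D-box, RORE or CRE, so all letters are in lower case.
Clock: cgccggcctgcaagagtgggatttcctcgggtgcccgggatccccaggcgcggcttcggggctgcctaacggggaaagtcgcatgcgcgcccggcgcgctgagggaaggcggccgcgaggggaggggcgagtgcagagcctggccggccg
Arntl: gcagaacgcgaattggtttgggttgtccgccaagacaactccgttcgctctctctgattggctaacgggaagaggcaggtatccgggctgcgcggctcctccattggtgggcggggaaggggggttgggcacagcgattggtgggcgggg

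The matches nearest to these start sites lay just downstream of them and are shown with 10 bases on each side, the motif in capitals. The Arntl RORE, the kind of element through which ROR factors activate and REV-ERB factors repress this gene, was centred 78 bp downstream of the start site (chr7:113207539-113207547). The Clock match is an E′-box centred 795 bp downstream (chr5:76303994-76303999).
Arntl RORE: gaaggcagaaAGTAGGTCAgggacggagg
Clock E′-box: accactcgggCACGTTtggagcggcg

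The promoters of 3 genes of the repressing side are shown for comparison, since both lists covered them and motif letters fell within the 150 bases upstream. Both lists also covered the start sites of Per1, Cry2, Nr1d2, Dbp and Tef. Like Clock and Arntl, these held none of the motifs in the 150 bases upstream, so the lack is not particular to Clock and Arntl. The 3 promoters shown are Per2 (chr1:91459325-91459474), Cry1 (chr10:85185065-85185214) and Nr1d1 (chr11:98775334-98775483), all on the minus strand. Capitals mark a D-box in Per2, an E′-box on the opposite strand followed by an E-box in Cry1, and an E′-box on the opposite strand in Nr1d1.
Per2: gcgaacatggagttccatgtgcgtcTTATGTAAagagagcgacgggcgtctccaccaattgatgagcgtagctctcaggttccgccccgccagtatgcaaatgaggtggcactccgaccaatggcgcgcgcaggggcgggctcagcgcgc
Cry1: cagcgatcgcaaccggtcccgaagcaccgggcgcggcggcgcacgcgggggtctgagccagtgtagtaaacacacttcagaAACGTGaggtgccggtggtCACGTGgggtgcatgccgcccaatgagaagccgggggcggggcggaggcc
Nr1d1: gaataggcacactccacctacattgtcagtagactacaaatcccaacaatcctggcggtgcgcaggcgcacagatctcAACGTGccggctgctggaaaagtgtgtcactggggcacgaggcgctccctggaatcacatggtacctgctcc

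All 10 start sites were covered in the RIP140-null list and 8 of 10 in the control list. Over all 21938 protein-coding genes the corresponding shares were 48.1% and 44.6%. The start sites of Clock and Arntl were covered in the RIP140-null list only, a pattern found in 11.8% of the 11088 genes with a covered start site. No clock gene start site was covered in the control list only, against 4.92% of those genes. With 10 genes, 1 gene is worth 10 percentage points, so a count of 2 cannot be set apart from the 11.8% over all genes.

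**Figure D1:**
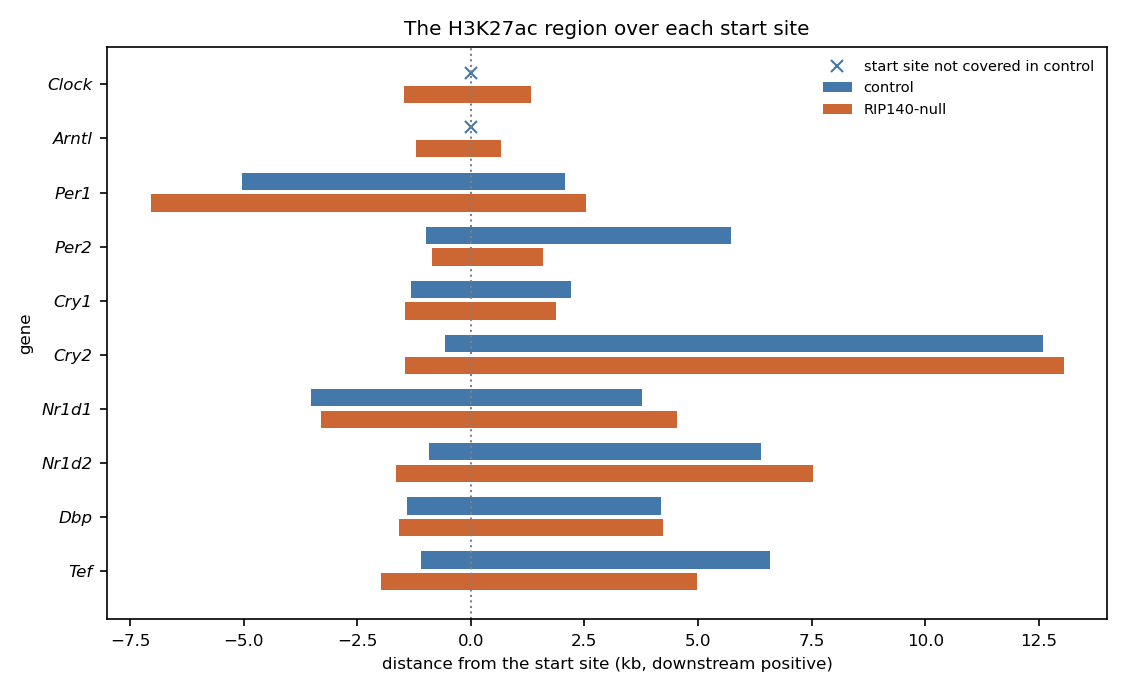
The H3K27ac region over the start site of each gene, drawn as a bar from its upstream to its downstream edge (x axis, kb from the start site, downstream positive) for the control list (blue) and the RIP140-null list (orange), with crosses where the control list does not cover the start site. Clock and Arntl have a bar in the RIP140-null list alone, and the Per2 bar is 6730 bp in control and 2437 bp in RIP140-null CMs.

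Clock, which encodes the histone acetyltransferase partner of BMAL1, had the shortest H3K27ac coverage of the 10 genes in both lists. Its window of 104.925 kb had 2563 bp covered in the control list and 2806 bp in the RIP140-null list, and no base was covered in both. Of the 12989 protein-coding genes covered in both lists, 1.78% had no base in common. The RIP140-null list held 1 region, chr5:76303464-76306269, which spanned the start site from 1477 bp upstream to 1328 bp downstream and rested on 2 subpeaks. The control list held 2 intronic regions with 2 subpeaks each, of 1930 bp and 633 bp, and the nearer began 5629 bp downstream of the start site. Of 5 annotated Clock start sites, 4 lay in the RIP140-null region and 0 in a control region. Gm7467, an antisense gene whose start site is 84 bp away on the other strand, was covered in the RIP140-null list only as well, so the region cannot be given to 1 of the 2 genes.

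Arntl, which encodes BMAL1, had regions spread over its body in both lists but little common ground. Its window of 116.662 kb held 6 control and 7 RIP140-null regions, which covered 10166 bp and 10559 bp. Of the bases covered in either list, 27.7% were covered in both. The median of that share was 63.6% over protein-coding genes and 70.4% over the clock genes. The region over the start site, chr7:113206267-113208135, was present in the RIP140-null list alone. It was 1869 bp wide, reached 1198 bp upstream and 670 bp downstream, and rested on 3 subpeaks. The nearest control region began 8621 bp downstream of the start site. Of 6 annotated start sites, 3 were covered in RIP140-null and 1 in control CMs.

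In the introns of Arntl each list also had regions that the other lacked. The control list alone held regions of 1240 bp and 2751 bp, centred in introns, and the RIP140-null list alone held regions of 1783 bp and 1004 bp. The 4 remaining regions of each list overlapped each other, and every control region of Arntl rested on 2 subpeaks. The RIP140-null region of 1783 bp (chr7:113249973-113251755) held a pair of ROREs, centred 42731 bp and 43489 bp downstream of the start site. A control region held another RORE at 46757 bp, in bases that the RIP140-null list did not cover.

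**Figure D2:**
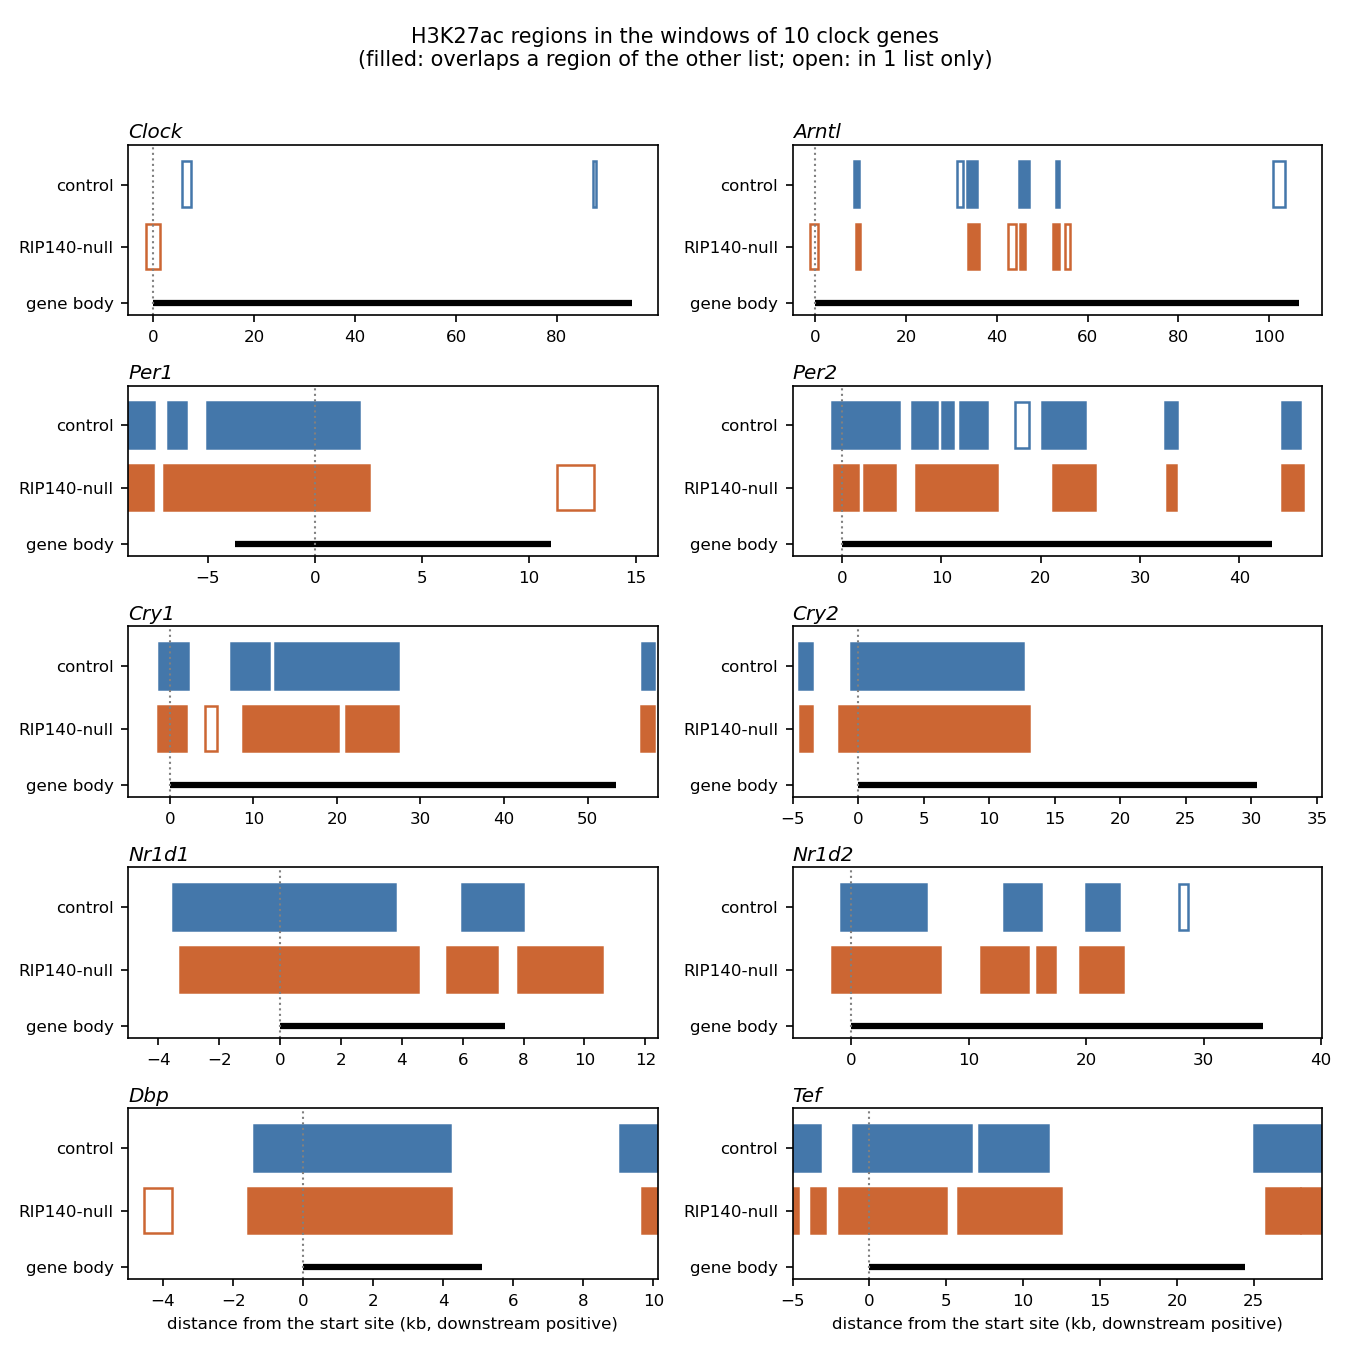
Regions of the control list (blue) and the RIP140-null list (orange) in the window of each gene, with the gene body in black (x axis, kb from the start site, downstream positive, its scale differing between panels). Filled boxes overlap a region of the other list and open boxes do not: 6 boxes are open in control and 7 in RIP140-null CMs, and all boxes of Clock are open.

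The Period genes encode the repressors whose level sets the phase of the clock. Per1 had 9218 bp covered in control and 12474 bp in RIP140-null CMs, a log2 ratio of 0.44 and the highest of the 10 genes, with 77.2% of all protein-coding genes covered in both lists below it. The region over its start site was 7110 bp wide in control (chr11:69093902-69101011) and 9570 bp in RIP140-null CMs (chr11:69091917-69101486), where it joined 2 control regions into 1. A region of 1754 bp beyond the 3′ end of Per1 (chr11:69110256-69112009) was in the RIP140-null list only and rested on 2 subpeaks. Among the 8 genes whose start sites both lists covered, Per1 was the exception in shape, since its start site region reached further upstream (5046 bp in control, 7031 bp in RIP140-null CMs) than downstream. The start site used for Per1, at position 69098948, lies inside the gene record, which opens at 69095217. Measured from 69095217, the region reached further downstream than upstream in both lists, so the exception depends on the start site used.

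Per2 was covered over nearly equal lengths, 21623 bp in control and 21022 bp in RIP140-null CMs (log2 ratio -0.04), but was cut up differently. The control region over its start site was 6730 bp wide and reached 5736 bp downstream. In RIP140-null CMs the same ground held 2 regions, 1 of 2437 bp over the start site and 1 of 3131 bp that began 2179 bp downstream, so the start site region was narrower by a log2 ratio of -1.47. Further into the gene the order turned, with a RIP140-null region of 8114 bp over ground that held 3 control regions. A control-only region of 1402 bp (chr1:91440549-91441950) lay in an intron of Per2.

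The Cryptochromes are the main repressors of CLOCK and BMAL1. Cry1 had 24220 bp covered in control and 24018 bp in RIP140-null CMs (log2 ratio -0.01), the longest coverage of the 10 genes in each list. Most of it lay in broad intronic regions between 7297 bp and 27362 bp downstream of the start site, while the start site region measured 3501 bp in control and 3339 bp in RIP140-null CMs. An intronic region of 1437 bp (chr10:85179448-85180884) with 2 subpeaks was in the RIP140-null list only. Cry2 had 14200 bp covered in control and 15425 bp in RIP140-null CMs (log2 ratio 0.12). Of its covered bases, 90.8% were in common, the highest share of the 10 genes, beside a median of 63.6% over protein-coding genes. Nearly all of the Cry2 coverage was 1 region over the start site, 13174 bp wide in control and 14499 bp in RIP140-null CMs. It reached 12601 bp and 13043 bp into the gene.

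The REV-ERB genes, nuclear receptors whose proteins are known to repress Arntl through ROREs, had longer coverage in RIP140-null CMs. Nr1d1 had 9289 bp covered in control and 12229 bp in RIP140-null CMs (log2 ratio 0.40), and Nr1d2 had 14124 bp and 18413 bp (log2 ratio 0.38). Of all protein-coding genes covered in both lists, 75.2% had a lower ratio than Nr1d1 and 74.6% a lower ratio than Nr1d2. The start site regions measured 7279 bp and 7825 bp at Nr1d1, and 7308 bp and 9190 bp at Nr1d2, control first. Much of the added length in the Nr1d1 window came from a RIP140-null region of 2768 bp (chr11:98764753-98767520) that lay wholly beyond the 3′ end of Nr1d1 and wholly within the body of Thra, the thyroid hormone receptor α gene on the other strand (chr11:98740638-98769006). It therefore cannot be given to Nr1d1. Nr1d2 had a control-only intronic region of 820 bp (chr14:18210450-18211269).

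Dbp and Tef, the output factors, differed little in length between the genotypes. Dbp had 6663 bp covered in control and 7040 bp in RIP140-null CMs (log2 ratio 0.08), and its start site region measured 5585 bp and 5803 bp, longer than the gene of 5116 bp. An 800 bp region upstream of Dbp (chr7:45700549-45701348) was in the RIP140-null list only and lay in the body of Car11. Tef had 18359 bp covered in control and 18614 bp in RIP140-null CMs (log2 ratio 0.02), and its start site region was 7687 bp in control and 6967 bp in RIP140-null CMs. Gm17597, an antisense gene, starts 192 bp from the Tef start site and was covered in both lists with it.

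**Figure D3:**
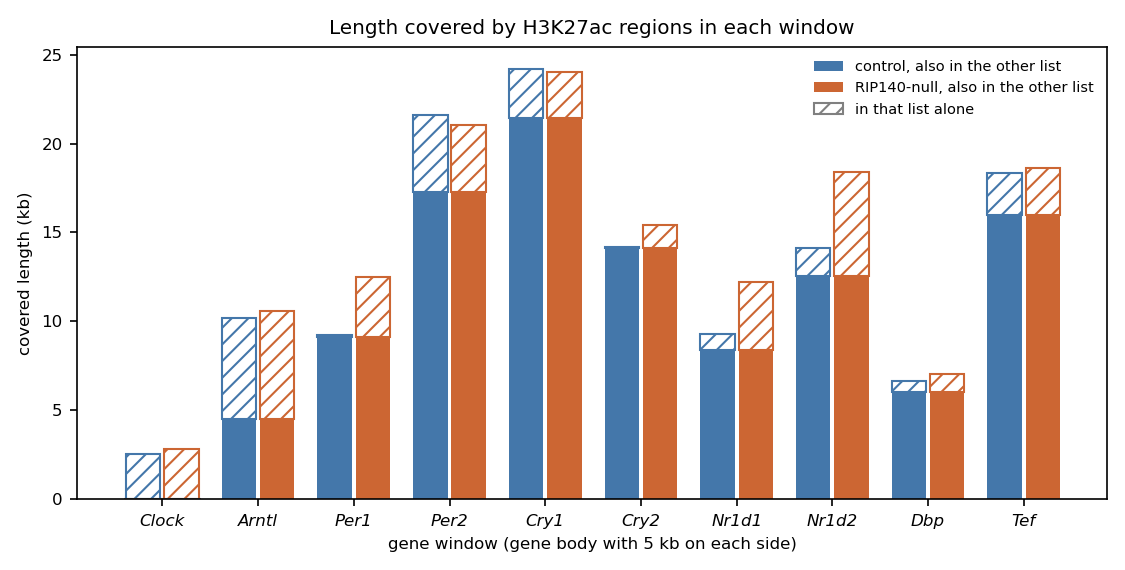
Length covered by H3K27ac regions in each window (y axis, kb) in the control list (blue) and the RIP140-null list (orange), split into bases also covered in the other list (filled) and bases in that list alone (hatched). Clock has no filled part, Cry2 has 90.8% of its covered bases in common, and the tallest hatched parts are 6062 bp at Arntl and 5846 bp at Nr1d2, both in RIP140-null CMs.

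Summed over the 10 windows, 130425 bp were covered in control and 142600 bp in RIP140-null CMs, a log2 ratio of 0.13. The 109376 bp covered in both made up 83.9% of the control length and 76.7% of the RIP140-null length. Over the whole genome 112128386 bp were covered in both, beside 151.259 Mb in the control list and 154.212 Mb in the RIP140-null list. Coverage was longer in RIP140-null CMs at 8 genes and shorter at 2, Per2 and Cry1, although the sign at Clock, Arntl, Cry1, Dbp and Tef turned with another window or a limit on region width. The median log2 ratio was 0.10 over the 10 genes and 0.08 over all protein-coding genes covered in both lists. No clock gene was over 1.5-fold longer or over 1.5-fold shorter in RIP140-null CMs, whereas 16.3% and 8.6% of all such genes were. The single genes lay between -0.04 and 0.44 on the log2 scale.

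**Figure D4:**
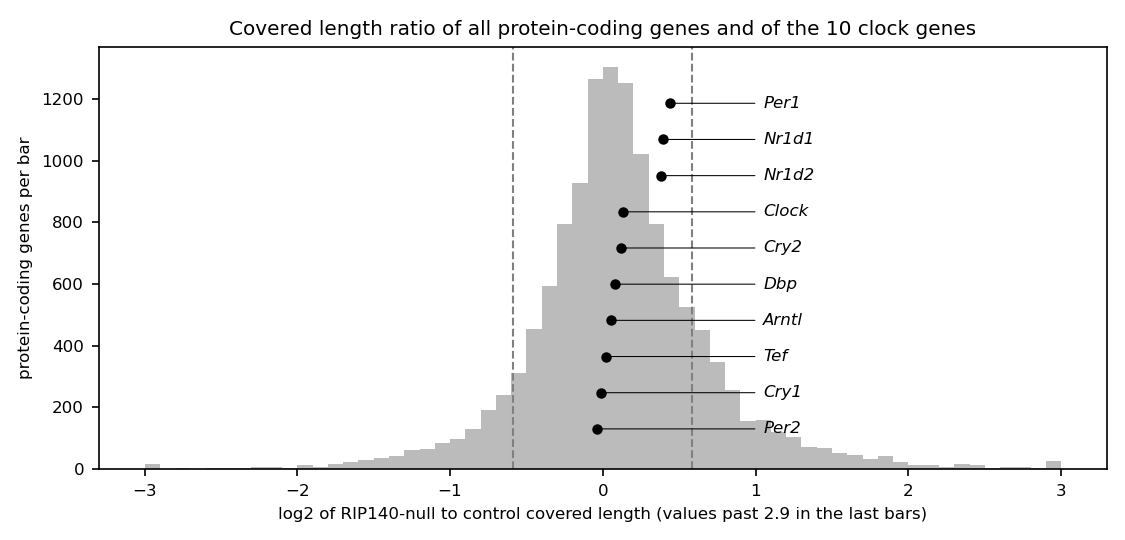
Number of protein-coding genes (y axis, bars of 0.1) by the log2 ratio of RIP140-null to control covered length (x axis), with the 10 clock genes as points whose height carries no value. Dashed lines mark 1.5-fold, and all 10 points, from -0.04 for Per2 to 0.44 for Per1, lie between them.

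A region was called list-specific when it overlapped no base of the other list. By that rule 6 of 37 control regions (16.2%) and 7 of 40 RIP140-null regions (17.5%) in the clock gene windows were list-specific, against 29.5% and 21.5% of all regions of those lists. RIP140-null-only regions lay in 5 windows (Clock, Arntl, Per1, Cry1 and Dbp) and control-only regions in 4 (Clock, Arntl, Per2 and Nr1d2). Of 14443 protein-coding genes with a region, 35.2% had a RIP140-null-only region and 39.2% a control-only region. Cry2, Nr1d1 and Tef had neither.

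The list-specific regions had a lower median width than all regions of these windows and rested on few subpeaks. All 6 control-only regions and 6 of the 7 RIP140-null-only regions rested on exactly 2 subpeaks, and the exception was the Arntl start site region with 3. Over all list-specific regions, 94.3% in control and 87.8% in RIP140-null CMs had exactly 2 subpeaks. In the clock gene windows the median width of list-specific regions was 1321 bp in control and 1754 bp in RIP140-null CMs, against 2665 bp and 2399 bp for all regions there. Over the whole lists, the medians were 1045 bp and 1279 bp for list-specific regions and 1846 bp and 2291 bp for all regions. All 6 control-only regions were centred in introns, as were 3 of the 7 RIP140-null-only regions. Of all regions in these windows, 23 of 37 in control and 23 of 40 in RIP140-null CMs were centred in introns.

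At the 8 start sites covered in both lists, the region was wider in RIP140-null CMs at 5 genes (Per1, Cry2, Nr1d1, Nr1d2 and Dbp) and narrower at 3 (Per2, Cry1 and Tef). The median log2 ratio of the widths was 0.08, against 0.10 over all genes covered in both. Widths ran from 3501 bp (Cry1) to 13174 bp (Cry2) in control CMs, all above the median of 2673 bp over all genes covered in both. In RIP140-null CMs they ran from 2437 bp (Per2), below the corresponding median of 2926 bp, to 14499 bp (Cry2), and the other 7 were above it. The RIP140-null regions of 2806 bp at Clock and 1869 bp at Arntl lay above and below the median of 1959 bp for start site regions found in the RIP140-null list only, of which 51.7% had exactly 2 subpeaks. Of the 8 regions in each list, 7 reached further downstream than upstream, a shape shared by 67.1% of all control and 68.7% of all RIP140-null start site regions that both lists cover. The exception was Per1, where the shape depended on the start site used.

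The clock acts through short DNA motifs, which were searched on both strands of all windows as exact letters. These were the E-box CACGTG and the E′-box CACGTT, bound by CLOCK and BMAL1, the D-box TTANGTAA, bound by DBP, TEF and their relatives, the RORE ANTAGGTCA and the cAMP response element (CRE) TGACGTCA, through which signals induce Per1. No matches of different motifs overlapped in these windows. A match is a string of letters and does not show that a factor was bound in these CMs.

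E-boxes were denser in the acetylated bases of the clock gene windows than in acetylated bases at large. Of 75 E-boxes in the windows, 29 lay in bases covered in both lists, or 2.65 per 10 kb, compared with 1.45 per 10 kb of all such bases in the genome. Outside any region the density was 1.19 per 10 kb in the windows and 0.98 per 10 kb in the genome. The E′-box showed the same order, with 25 of 76 matches in bases covered in both lists (2.29 per 10 kb, against 1.51 in the genome). D-boxes did not, with 15 of 75 matches in such bases (1.37 per 10 kb, against 1.28). These densities rest on 10 genes known for their E-boxes and are a description.

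**Figure D5:**
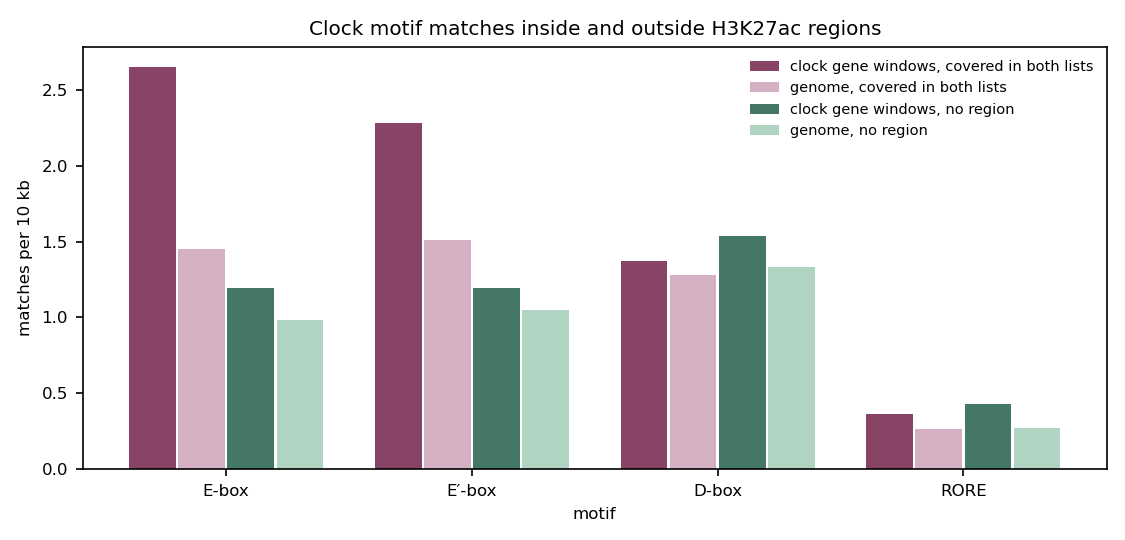
Matches per 10 kb (y axis) of 4 clock motifs (x axis) in bases covered in both lists and in bases outside any region, for the 10 clock gene windows and for the whole genome. The E-box bar for the covered bases of the windows stands at 2.65, above 1.45 for the covered bases of the genome and 1.19 for the uncovered bases of the windows.

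Most of the E-boxes within regions lay at the 8 genes whose start sites both lists covered. At these genes 27 of 51 E-boxes lay in bases covered in both lists, while at Clock and Arntl this held for 2 of 24. Clock had no base covered in both lists, so that none of its E-boxes could count. Arntl had 4497 such bases, and its 2 E-boxes there came to 4.45 per 10 kb, against 2.57 per 10 kb over the 104879 bp of the 8 genes. All 11 E-boxes of the Clock window lay outside every region, and so did 10 of the 13 of Arntl. Per1 had 6 of its 7 E-boxes in bases covered in both lists, Nr1d1 5 of 7, Tef 6 of 8, Nr1d2 3 of 4 and Cry2 3 of 7. Cry1 and Dbp had 2 of 6 each, and Per2 had 0 of 6.

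The E-boxes nearest to the start sites of Per1, Nr1d1, Nr1d2, Tef and Dbp are shown with 10 bases on each side, since the same bases were acetylated in both genotypes. Numbers give the distance of the centre from the start site in bp, with upstream negative. Per1 carried 3 of them upstream (chr11:69097674-69097679, chr11:69098420-69098425 and chr11:69098783-69098788), and Nr1d1 carried 1 upstream (chr11:98775695-98775700) and 3 within 1471 bp downstream (chr11:98774154-98774159, chr11:98773874-98773879 and chr11:98773859-98773864).
Per1 -1271: aagctttagcCACGTGacagtgaggg
Per1 -525: cccttaacgaCACGTGggccctcaat
Per1 -162: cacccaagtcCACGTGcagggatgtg
Nr1d1 -365: gttctccaatCACGTGaagctctcac
Nr1d1 1176: gagccgggccCACGTGctgcatttgt
Nr1d1 1456: gttggggtgcCACGTGcgaggggcac
Nr1d1 1471: gcgaggggcaCACGTGgagtggggac

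Nr1d2, Tef and Dbp carried theirs downstream of the start site. The Nr1d2 matches lie at chr14:18238525-18238530, chr14:18238570-18238575 and chr14:18238673-18238678, the Tef matches at chr15:81802546-81802551 and chr15:81803091-81803096, and the Dbp matches at chr7:45707712-45707717 and chr7:45707825-45707830. All 7 lay in the region over the start site in each list.
Nr1d2 451: ccgcactggcCACGTGcacggtgtgt
Nr1d2 554: cgggcggagaCACGTGaggccgcggg
Nr1d2 599: gccggaggaaCACGTGggggcggtgc
Tef 128: gctgtggctcCACGTGctgcagctgg
Tef 673: gtgctgtgctCACGTGgggcaaggat
Dbp 2627: attccctcgcCACGTGagtccgcctt
Dbp 2740: ctgtaggccaCACGTGatgcggccct

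Per2 had no acetylated E-box that both lists shared, but an E′-box centred 7 bp downstream of its start site (chr1:91459314-91459319), near the D-box shown in its promoter at -122 bp. The narrower RIP140-null region of 2437 bp still covered both. Cry1 combined the E-box at -48 bp and the E′-box at -67 bp with a pair of ROREs in an intron, centred 23096 bp and 23149 bp downstream (chr10:85161964-85161972 and chr10:85161911-85161919), in bases covered in both lists.
Per2 E′-box 7: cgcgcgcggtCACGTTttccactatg
Cry1 RORE 23096: cagactagaaAGTAGGTCAttgtgatggg
Cry1 RORE 23149: gctatagcgaTGACCTACTttagaaacta

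ROREs were few and were not concentrated in shared regions, with 4 of 25 in bases covered in both lists, 2 in control-list bases alone and 4 in RIP140-null-list bases alone. Arntl had 10 of the 25, of which 3 lay in RIP140-null-list bases alone, the one at 78 bp and the intronic pair among them, and 1 lay in control-list bases alone. Between 1000 bp upstream and 100 bp downstream of the start site, Arntl was the single clock gene with a RORE, and 2.48% of all protein-coding promoters had one. In the same span an E-box lay in Per1, Cry1 and Nr1d1 (17.8% of all promoters), an E′-box in Per2, Cry1, Cry2 and Nr1d1 (16.5%), and a D-box in Per2 (10.2%). None of the 10 had a CRE there (3.21%). The whole windows held 5 CREs, of which 2 lay in bases covered in both lists. These were a CRE of Per1 upstream of that span, centred at -1742 bp (chr11:69097202-69097209), and a CRE of Cry2 centred at 8476 bp.

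The promoters also differed in base composition. From 250 bp upstream to 50 bp downstream, GC content ran from 57.3% in Tef to 76.3% in Clock, all above the median of 56% over protein-coding genes. Clock held 42 CpG dinucleotides in that span and Arntl 21, while Tef held 5, against a median of 12. The 2 promoters that were covered in the RIP140-null list only thus lay above the median in CpG. So did those of Cry1 (38), Per2 (36), Cry2 (31), Dbp (20), Nr1d2 (18), Per1 (16) and Nr1d1 (15), which both lists covered.

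Other start sites inside the windows followed no single pattern. Hes6 in the Per2 window and Mterf2 in the Cry1 window were covered in both lists. Mapk8ip1 and D930015M05Rik in the Cry2 window, Ube2n-ps1 and Gm43658 in the Clock window, Gm45355 in the Arntl window, and Gm44469 and Gm7084 in the Nr1d2 window were covered in neither. The regions beyond the 3′ ends of Per2 and Cry1 thus covered the start of a neighbouring gene.

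A further 18 genes of the clock were set beside the 10. Their start sites were covered in 14 cases in control and 17 in RIP140-null CMs, with 13 covered in both. Among those covered in RIP140-null CMs only were Rorb, a receptor that activates through ROREs, Btrc, a ubiquitin ligase subunit that acts on Period proteins, and Timeless. Their regions rested on 2, 2 and 3 subpeaks in that order. Hlf, a PAR bZIP relative of Dbp and Tef, was covered in control CMs only, with 2 subpeaks. Together with Clock and Arntl, 6 of 28 clock genes had a start site covered in RIP140-null CMs only and 1 of 28 in control CMs only, beside the 11.8% and 4.92% given above.

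In covered length these 18 genes were balanced, with a median log2 ratio of -0.02 over the 17 covered in both lists. The median over all protein-coding genes covered in both lists was 0.08. Timeless (log2 ratio 2.33, 756 bp in control and 3814 bp in RIP140-null CMs) and Fbxl21 (0.80, 671 bp and 1169 bp) were over 1.5-fold longer, and 0 were over 1.5-fold shorter. The shares over all protein-coding genes covered in both lists were 16.3% and 8.6%. At Timeless the regions of the lists had no base in common. RIP140-null-only regions lay in 10 of the 18 windows and control-only regions in 9, beside the same 35.2% and 39.2% over all genes. Rora alone, with a window of 744.461 kb, held 24 of the 39 control-only and 12 of the 25 RIP140-null-only regions.

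Genes known as clock outputs were next compared, among them Klf15, which links the clock to repolarization and metabolism, its target Kcnip2, the channel gene Kcnh2, and Nampt, Pdk4 and Dgat2 of energy metabolism. Of 12 such genes, 11 had a start site covered in both lists and 1, Bdh1, in neither. Over all protein-coding genes 44.6% had a start site covered in control and 48.1% in RIP140-null CMs. RIP140-null-only regions lay in 5 windows and control-only regions in 2, beside 35.2% and 39.2% of all protein-coding genes with a region. The median log2 ratio of covered length was 0.17, against 0.08 over all protein-coding genes covered in both lists. Of the 12 genes, 0 passed 1.5-fold in either direction, beside 16.3% longer and 8.6% shorter over all genes. The highest values were 0.58 for Por, 0.53 for Bdh1 and 0.52 for Pdk4, and the lowest was -0.21 for Kcnip2.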

How the data were processed

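The authors used Bowtie2 2.4.2 for alignment (GRCm38), SAMtools to drop duplicate reads and HOMER 4.11.1 in histone mode to call regions per replicate against IgG, and then merged the replicates of a genotype into those detected in 2 or more of 3. The deposited lists give start and end in bp, and the score of every region is 1 and was not used. No tag counts or depths per sample accompany them. Only the autosomes, X and Y were used, which dropped 21 control and 14 RIP140-null regions.

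Overlaps of at least 1 bp, covered lengths and motif matches were computed in Python 3.11.15 with numpy 2.4.6 and pysam 0.24.0, and these steps were checked on made-up lists and sequences, recovering 200 of 200 genes and 200 of 200 planted motifs. Start sites were those of the best-ranked APPRIS principal transcript. Sequence came from the RefSeq GRCm38 genome, all 10 genes being found by symbol. No tests were made, as there is 1 list per genotype. Backgrounds are shares of protein-coding genes. The 10 genes, the added clock gene lists and the markers were chosen with earlier results of these data known. Named genes were the 10, Nrip1, genes starting inside a window and, in the added lists, those with a start site covered in 1 list or over 1.5-fold apart, of which some are not reported here. Genes with functions given and the extreme ratios among the clock outputs were named after their values were seen.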

Additional observations from a re-analysis of the deposited data

How the results depend on the processing

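Of 47 alternative values for counts and sums, 38 stayed within 1.5-fold. Clock and Arntl remained the difference between 8 and 10 covered start sites when only regions of at least 1000 bp, equal numbers of the widest regions or the 5′ ends of the gene records were used. With both lists held to regions of 3 or more subpeaks, an alternative chosen after seeing the data, 8 start sites were covered in control and 9 in RIP140-null CMs, Clock being lost, and the list-specific regions became 0 of 17 in control and 5 of 21 in RIP140-null CMs (31.2% and 37.4% of all regions so held). Apart from the Arntl start site region, these 5 RIP140-null regions overlapped control regions of exactly 2 subpeaks, which the limit had removed. They lay in the windows of Per2, Nr1d1 and Tef and were shared under the main rule. Asking for a reciprocal overlap of 50% raised the list-specific regions to 13 in control and 16 in RIP140-null CMs. Within 5 kb of the start sites they numbered 0 and 4, and by nearest start site among all genes 2 and 4. Shares over all genes were not counted under these rules. Without the 5 kb extension 1 gene, Clock, was over 1.5-fold shorter in RIP140-null CMs (log2 ratio -0.95), since part of its start site region lay outside. Without the extension the Arntl ratio was -0.12. With regions of at least 1000 bp the ratio was -0.09 at Dbp and -0.06 at Tef, with 20 kb extensions it was -0.15 at Dbp, and within 5 kb of the start site it was 0.25 at Cry1, all with the opposite sign to that reported. A limit of 25% called 3 genes longer (Per1, Nr1d1 and Nr1d2). The share of all genes past that limit was not counted, so the 3 cannot be set apart from it. Of all protein-coding genes covered in both lists, 74.6% had a lower ratio than Nr1d2, the lowest of the 3. The ratios of Per1, Nr1d1 and Nr1d2 kept their sign but depended on the window. In that order they were 0.11, 0.25 and 0.34 without the extension and 0.56, 0.36 and 0.38 with 20 kb extensions. Within 5 kb of the start site they were 0.09, 0.10 and 0.17. Requiring an A after the E-box left 14 matches, counted per strand, in bases covered in both lists. Over all 55413 annotated genes 24.1% had a start site covered in control and 25.8% in RIP140-null CMs. The ratios of Clock and Arntl within 5 kb of the start site could not be formed, as control covered 0 bp there. Leaving out a replicate, and a paired analysis, were not possible because the lists hold no values per replicate. The unknown depth limits every statement that a region is in 1 list only.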
